A study of Mus musculus with 6 samples.

Results

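The core clock loop is the set of transcription factors and repressors that keeps daily time in nearly every mouse cell. Its genes were chosen by symbol: Arntl, Clock, Npas2, Per1, Per2, Per3, Cry1, Cry2, Bhlhe40 and Bhlhe41. A gene was measured where a probe set carried that symbol and no other, and 9 of the 10 were, among 19938 genes in all. Each of the 9 had 1 probe set, so no choice between probe sets was needed. Npas2, a partner of Arntl that can stand in for Clock, was not analysed here. The genes were proposed with earlier results of the same group comparison in view. Their differences between the groups are therefore a description, and the counts of genes past a threshold support nothing about the set.

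RNA of type II alveolar epithelial cells, the lung cells that make surfactant, was hybridised to 6 Affymetrix mouse arrays. Cells were freshly isolated with collagenase and differential plating from adult mice aged 8 weeks, and each array held the cells of 3 pooled mice. Mice of both groups carried SP-C-rtTA, a transactivator driven by the surfactant protein C promoter, and the Cre transgene (tetO)7CMV-Cre. On 3 arrays the mice also carried the conditional alleles Gpr116flx/flx, and the 3 control arrays held littermates without them. Recombination thus depended on cells that use this promoter and on doxycycline, and the labels give neither the doxycycline schedule nor the hour at which the cells were taken. The labels do not say whether pools were made on separate days. The spread between arrays is that between pools of mice and may include technical spread. The titles carry a further number that the labels do not explain, and no value of its first part occurs in both groups. If the groups differed in hour or day of collection, this could not be told apart from genotype.

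Values are log2 expression after RMA, a method that makes the distributions of the arrays alike. A level of 1 probe set cannot be set against that of another, so levels are compared between arrays for the same gene, and only differences are set side by side between genes. Single arrays are called knockout or control with the replicate number of their title, and knockout there is the label. Array medians lay between 6.77 and 6.81. For the targeted gene Gpr116 (Adgrf5), arrays labelled knockout read higher than controls by 0.34 ± 0.05 on log2 (SE, n = 3 each, limma adjusted p = 0.0119). Its probes may lie outside the deleted exons, in which case they check nothing. The cause of the higher reading was not tested, and every direction below rests on the labels. The mean log2 value of 9 type II cell markers was 12.47 to 12.53 on the arrays labelled knockout. On the controls it was 12.39 to 12.42. Lamp3 and Lpcat1, 2 of the 9, were higher at limma adjusted p under 0.05, and 0 were lower. Of 11 measured ciliated cell markers, 11 were lower on the arrays labelled knockout (limma adjusted p under 0.05). The log2 of their summed linear values was 12.18 to 12.69 there and 13.26 to 13.34 on the control arrays. The lowest value of any of them was 7.14, which does not by itself show how much transcript remained. In bulk RNA, fewer cells of a type and less RNA per cell cannot be told apart. Of 5 club cell markers 3 were lower, and of 5 markers of dividing cells 3 were higher. Among 5 endothelial markers Pecam1 was higher and Kdr lower, and among 6 type I cell markers Ager was higher. Macrophage, lymphocyte and fibroblast markers had 0 calls. For comparison, 3.36% of all genes were called higher and 5.13% lower. Control 1 and knockout 2 were male pools by Xist and Y-linked genes, and the other 4 were female.

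In the loop, Arntl pairs with Clock or Npas2 and the pair binds E-boxes in DNA, which turns on the Period and Cryptochrome genes. Period and Cryptochrome proteins return to the nucleus and block the pair, and Bhlhe40 and Bhlhe41 compete for the same E-boxes. A second loop is formed by the Rev-Erb repressors Nr1d1 and Nr1d2 and the ROR activators. They act through ROR elements on genes that include Arntl, Clock, Cry1 and Nfil3. A further site, the D-box, is bound by the activators Dbp, Tef and Hlf and by the repressor Nfil3. Over a day the transcripts of Arntl therefore peak when those of Per3, Dbp and Nr1d1 are near their trough. Clocks in airway and alveolar epithelium are known to set daily swings in lung inflammatory responses.

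Promoter sequences show which of these elements lie close to the annotated starts. Windows from RefSeq (GRCm38.p6) ran from 250 bases before to 50 bases after each start. The table held 12 windows for 8 of the 10 genes, with Npas2 among the 8 and no entry for Per2 and Bhlhe40. They were searched on both strands for the E-box CACGTG, the E-box variant CACGTT, the D-box TTATGTAA or TTACGTAA, and the ROR element TAGGTCA. No matches overlapped each other. The stretches below show each kind of element at least 1 time, with the matches in capitals and the strand of the gene running 5′ to 3′. The first lies at chr10:85185055-85185234 (minus strand), the second at chr6:145865421-145865600 (minus), the third at chr4:151044666-151044885 (minus) and the last at chr7:113207529-113207558 (plus).
Cry1: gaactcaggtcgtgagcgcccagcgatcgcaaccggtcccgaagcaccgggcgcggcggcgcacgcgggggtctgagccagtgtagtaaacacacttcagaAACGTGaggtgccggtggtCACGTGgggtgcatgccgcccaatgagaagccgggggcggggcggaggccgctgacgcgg
Bhlhe41: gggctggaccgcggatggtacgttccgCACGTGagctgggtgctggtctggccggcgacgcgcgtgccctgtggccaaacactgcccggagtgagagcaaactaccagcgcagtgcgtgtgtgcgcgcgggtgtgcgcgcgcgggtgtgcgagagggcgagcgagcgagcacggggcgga
Per3: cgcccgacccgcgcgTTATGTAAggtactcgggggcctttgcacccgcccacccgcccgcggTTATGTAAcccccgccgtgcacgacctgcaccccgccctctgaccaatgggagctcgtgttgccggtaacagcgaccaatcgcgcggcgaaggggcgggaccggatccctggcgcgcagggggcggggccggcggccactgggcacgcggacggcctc
Arntl: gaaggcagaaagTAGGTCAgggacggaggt

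The E-box of Cry1 begins 60 bases before its start and the variant 79 bases before. The E-box of Bhlhe41 begins 153 bases before the start. Per1 also held an E-box, 166 bases before 1 of its 2 starts, and Cry2 held a variant at 166 bases. Per3 held 2 D-boxes, at 205 and 158 bases. In the second of its 2 windows, Arntl held a ROR element whose first base is base 31 of the transcribed sequence. Of all 32851 promoter windows 7.15% held the E-box, 4.68% the variant, 1.06% a D-box and 2.61% the ROR element. Of the 12 windows 6 held none of these letters, among them all 3 of Clock. A match is a string of letters and not a measured site.

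Arntl, the obligate activator of the loop, read 8.90, 9.10 and 8.97 on knockout 1, 2 and 3, against 7.83, 8.43 and 8.66 on the controls. Every array labelled knockout stood above every control array, and control 1 stood far below the other controls. On log2 the difference was 0.68 ± 0.20 (SE, n = 3 per group), or 1.61-fold higher, and 2.87% of all genes had a larger difference in either direction. Without control 1 the difference was 0.445. In the limma fit across all genes Arntl did not pass the adjusted threshold of 0.05. With the replicate number blocked, the SE was 0.14 and Arntl did pass.

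Most of the spread of Arntl lay in the controls, whose range of 0.83 was exceeded by that of 0.181% of all genes. The arrays labelled knockout covered a range of 0.20. Between the male pools, 1 in each group, the difference was 1.27, and between the female pools, 2 in each group, it was 0.39. Since the groups of Arntl did not overlap over all arrays, neither of these comparisons could overlap.

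Clock, the histone acetyltransferase that partners Arntl, read 9.70, 9.94 and 9.86 on control 1, 2 and 3, against 9.93, 9.95 and 10.09 on the arrays labelled knockout. The groups overlapped, since control 2 stood between knockout 1 and knockout 2. The difference of 0.16 ± 0.08 did not pass the threshold, and its 95% interval ran from -0.03 to 0.34.

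Per3, the Period gene whose promoter held the 2 D-boxes, had the largest difference of the 3 Period genes. It read 8.31, 7.94 and 8.27 on knockout 1, 2 and 3, against 9.39, 9.12 and 9.02 on the controls. The groups lay well apart, with 0.71 between the highest of the first and the lowest of the second. On log2 the difference was -1.003 ± 0.13 (SE, n = 3 per group), a 2.0-fold lower level, and 0.978% of all genes had a larger one. Per3 stayed past the threshold whichever array was left out, with differences between -1.08 and -0.89 over all the settings tried.

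Per2, the repressor that carries much of the Period function in the core loop, read 8.32, 8.25 and 8.70 on the arrays labelled knockout. The control arrays read 9.17, 8.96 and 9.04. The groups did not overlap, and knockout 3 came closest to the controls. On log2 the difference was -0.63 ± 0.12 (SE, n = 3 per group), 1.55-fold lower and past the threshold, but not without control 1, control 2 or control 3.

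Per1 had the widest spread of the Period genes among the arrays labelled knockout. This Period gene also answers acutely to glucocorticoids and cyclic AMP. It read 9.21, 9.19 and 9.51 on control 1, 2 and 3, against 8.51, 9.06 and 9.55 on the arrays labelled knockout. Knockout 1 stood far below every other array, while knockout 3 was the highest of all 6. The range of 1.04 among the arrays labelled knockout was exceeded by 1.73% of genes. On log2 the difference was -0.26 ± 0.24, with a 95% interval from -0.84 to 0.31, and did not pass. Without knockout 1 it was 0.0017.

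The Cryptochrome genes went in opposite directions. Cry1, the stronger repressor of the pair, read 7.81, 7.67 and 7.54 on knockout 1, 2 and 3, against 7.18, 7.21 and 7.31 on the controls, without overlap. Its log2 difference was 0.44 ± 0.08 (SE, n = 3 per group), 1.36-fold higher and past the threshold, a call that was lost when any 1 control array was left out. Cry2 read 9.12, 9.19 and 9.14 on control 1, 2 and 3, against 8.57, 8.60 and 8.75 on the arrays labelled knockout. Its groups were separated by 0.37, and each was narrow. On log2 the difference was -0.51 ± 0.06 (SE, n = 3 per group), 1.42-fold lower. Cry2, like Per3, was past the threshold whichever array was left out.

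Bhlhe40 and Bhlhe41 encode related repressors, also called Dec1 and Dec2. Bhlhe40 read 8.63, 8.73 and 8.61 on knockout 1, 2 and 3, against 8.73, 8.73 and 8.77 on the controls. Knockout 2 equalled 2 of the controls, and the difference of -0.09 ± 0.05 (95% interval -0.21 to 0.04) did not pass. Bhlhe41 read 6.76, 6.72 and 6.29 on control 1, 2 and 3, against 6.02, 5.40 and 5.06 on the arrays labelled knockout. No array of one group reached the other. The log2 difference was -1.10 ± 0.24 (SE, n = 3 per group), or 2.14-fold lower, and 0.627% of all genes had a larger one.

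The call of Bhlhe41 was lost without knockout 2, knockout 3 or any 1 control array. Within its group knockout 1 read highest and knockout 3 lowest, and the ciliated cell markers had the same order, with means of 8.79, 8.42 and 8.25. This order was found in 17.0% of all genes. Cry1 shared that order while being higher than in the controls. Among the controls Bhlhe41 was highest on control 1 and lowest on control 3, while the marker means were 9.51, 9.43 and 9.53. The part of ciliated cells in this difference was not tested.

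**Figure D1:**
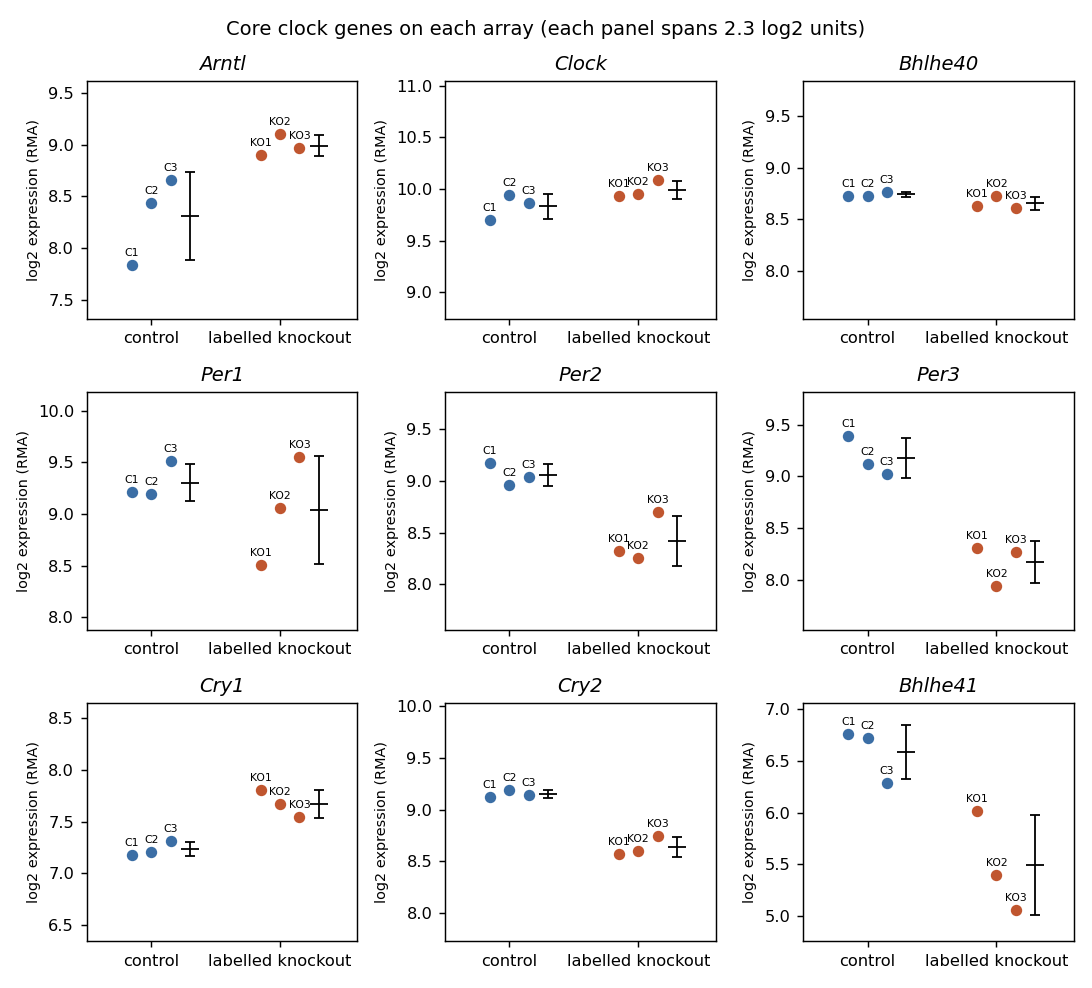
Log2 expression (RMA) of the 9 measured core clock genes, 1 panel each, with points for the 3 control and the 3 arrays labelled knockout and a bar at the mean ± SD of each group. Each panel spans the same number of log2 units, so the gap of Per3 (-1.003), the wide control range of Arntl (0.83) and the wide Per1 range among arrays labelled knockout (1.04) can be compared directly.

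Counted over the set, 5 of 9 genes passed the threshold, 1 of them higher (Cry1) and 4 lower (Per2, Per3, Cry2 and Bhlhe41). Over all genes 8.49% passed, 3.36% higher and 5.13% lower. Values of both groups did not overlap in 6 of the 9, namely the 5 and Arntl, against 27.6% of all genes. Since the set was proposed with this comparison in view, nothing is read from these counts. The median log2 difference of the 9 genes was -0.26, and that of all genes 0.0033. Without control 1, control 2 or control 3, only 2 of the 9 passed, Per3 and Cry2, while the count over all genes fell from 1692 to 595, 514 and 459. In the 6 genes without overlap, the sign within the male and within the female pools is fixed by that lack of overlap. A split by sex is therefore no further check of them.

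Transcription factors of the second loop and of clock output passed in 6 of 10 measured, 1 higher and 5 lower (median difference -0.38), beside 8.49%, 3.36% and 5.13% of all genes. The list was drawn up with the result of Dbp known. Nr1d1, a Rev-Erb repressor, fell by 0.96 ± 0.07 on the log2 scale (limma adjusted p = 0.00291). It was at 10.29, 10.37 and 10.19 on knockout 1, 2 and 3, against 11.17, 11.33 and 11.23 on the controls. The other Rev-Erb gene, Nr1d2, fell by 1.20 ± 0.16 (limma adjusted p = 0.00783). Nfil3, the D-box repressor and a Rev-Erb target, rose by 0.73 ± 0.08 (limma adjusted p = 0.00493), from 7.43, 7.51 and 7.70 to 8.20, 8.33 and 8.31. The D-box activators Dbp, Tef and Hlf differed by -1.87 ± 0.22, -0.99 ± 0.09 and -0.35 ± 0.07, all past the threshold, although Hlf was not without knockout 3 or any 1 control array.

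The 4 others did not pass. Ciart, a repressor of the Arntl and Clock pair, differed by -0.41 ± 0.17 (limma adjusted p = 0.213). Arntl2, Rora and Rorb stood at -0.14, 0.14 and 0.04. The genes named above as Rev-Erb targets differed by 0.68 (Arntl), 0.16 (Clock), 0.44 (Cry1) and 0.73 (Nfil3), and both Rev-Erb genes were lower. Arntl and Clock did not pass the threshold, and the groups of Clock overlapped. The part of the Rev-Erb genes in these differences was not tested. Genes whose promoter windows held an E-box differed by 0.44 (Cry1), -0.26 (Per1), -1.10 (Bhlhe41), -0.99 (Tef) and -0.41 (Ciart). Per1 and Ciart did not pass the threshold. Cry2, Nr1d1 and Rorb, whose windows held only the E-box variant, differed by -0.51, -0.96 and 0.04. Per2 had no window, and the part of E-boxes in these differences was not tested.

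**Figure D2:**
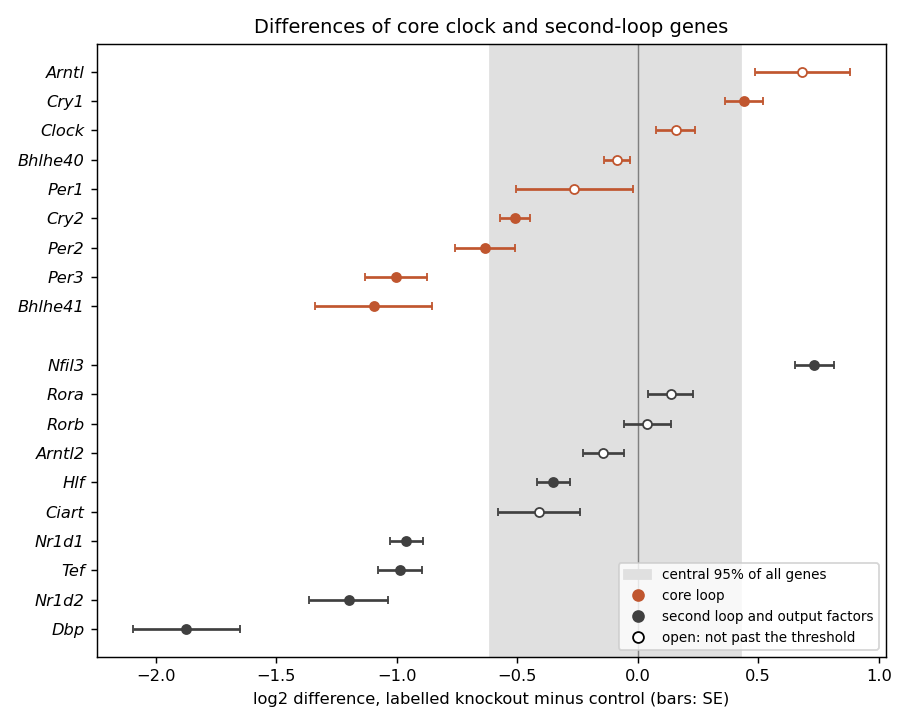
Log2 difference between arrays labelled knockout and control arrays for the 9 core genes (orange) and 10 second-loop and output factors (grey), with bars of 1 SE and open symbols where the limma threshold was not passed. The shaded band holds the central 95% of all 19938 genes, -0.61 to 0.43; Arntl, Cry1 and Nfil3 lie above it, and Per2, Per3, Bhlhe41, Nr1d1, Nr1d2, Tef and Dbp below it.

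Of 24 measured enzymes and co-regulators that act on clock proteins, 0 were higher and 1 was lower in the limma fit (median difference -0.01), beside 3.36% and 5.13% of all genes. Of the 24, 4 had an unadjusted p under 0.05, as had 22.1% of all genes. The gene that passed was Usp2, a deubiquitinase that acts on clock proteins and is itself under clock control. It fell by 0.76 ± 0.11 (limma adjusted p = 0.00905, and 0.0538 without control 3). Control arrays read 8.71, 8.70 and 8.70, and arrays labelled knockout 8.20, 7.84 and 7.79. The acetyltransferase Kat2b (0.33 ± 0.10), the deubiquitinase Usp7 (0.16 ± 0.06) and the ubiquitin ligase subunit Btrc (-0.18 ± 0.07) did not pass, with limma adjusted p of 0.110, 0.156 and 0.216. Without knockout 2 Kat2b passed, at 0.0137. The casein kinases that phosphorylate Period proteins, Csnk1d and Csnk1e, stood at -0.07 ± 0.05 and -0.06 ± 0.06.

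The arrays of a group also differed among themselves. Their spread enters the SE of each difference, while the order of the arrays within a group does not enter the comparison. Among the control arrays Per3 was highest on control 1 and lowest on control 3, an order shared, among core and second-loop genes, by Nr1d2, Dbp, Tef, Ciart and Bhlhe41, and found in 18.2% of all genes. Arntl had the reverse order, as did Nfil3, Cry1, Rora and Rorb, and 16.4% of all genes. On control 1 Arntl was 0.83 lower than on control 3, and Dbp was 0.83 higher. Among the arrays labelled knockout Per3, Nr1d2 and Dbp were highest on knockout 1 and lowest on knockout 2, and Arntl and Nfil3 had the reverse order. The first of these orders was that of 22.5% of all genes and the reverse that of 14.1%. In both groups together the order of Per3 was found in 5.11% of all genes and that of Arntl in 3.18%. Arntl was thus lowest in the male pool among the controls and highest in the male pool among the arrays labelled knockout. Nr1d1 was lower between the groups, as Per3 was, but did not share the order of Per3. Like Arntl, it was lowest on control 1 (11.17, 11.33 and 11.23) and highest on knockout 2 (10.29, 10.37 and 10.19). Cry2, also lower between the groups, was lowest on control 1 as well. These orders are descriptions of 6 arrays and carry no test.

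**Figure D3:**
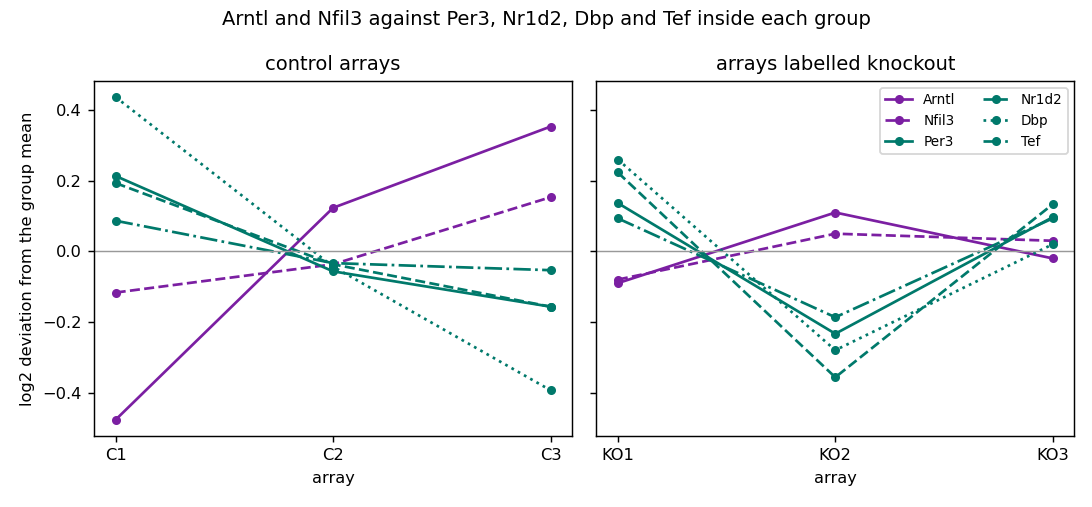
Log2 deviation from the group mean on each control array (left) and each array labelled knockout (right) for Arntl and Nfil3 (purple) and for Per3, Nr1d2, Dbp and Tef (green); lines join the values of a gene, and the arrays have no order. Arntl is lowest on control 1, where Per3 and Dbp are highest, and highest on knockout 2, where they are lowest. The genes drawn were picked with their values in view. Nr1d1, which is not drawn, was lowest on control 1 and highest on knockout 2, as Arntl was.

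Per1, Clock and Cry2 shared another order, highest on knockout 3 and lowest on knockout 1, which 10.5% of all genes had. Of 17 measured genes known to respond to glucocorticoids, 11 had it too, among them Fkbp5 (7.66, 7.95 and 8.59), Sgk1 (7.00, 7.77 and 8.30), Tsc22d3 (9.48, 9.97 and 10.68) and Pdk4 (7.00, 8.21 and 8.66 on knockout 1, 2 and 3). Among the controls Per1 was highest on control 3 and lowest on control 2. Of the 17 genes 3 had that order, beside 14.3% of all genes. Knockout 1 also stood apart in the log2 of the summed lymphocyte markers, at 9.71 against 9.22 to 9.30 on the other arrays. The part of glucocorticoid signalling or of cell content in the Per1 values was not tested. Between the groups 2 of the 17 were higher in the limma fit and 0 lower (median difference 0.14), beside 3.36% and 5.13% of all genes. These were Lcn2, an iron-binding protein also induced in inflammation, at 0.91 ± 0.07 (limma adjusted p = 0.00324), and the metallothionein Mt2 at 1.36 ± 0.18 (0.00772, and 0.0518 without control 3). The glucocorticoid receptor gene Nr3c1 (0.17 ± 0.06), Mt1 (0.44 ± 0.16) and Fkbp5 (0.53 ± 0.23) did not pass, at 0.134, 0.163 and 0.235. With replicate numbers blocked, 4 of the 17 passed, Mt1 and Zbtb16 being added at limma adjusted p = 0.0433 and 0.0139.

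**Figure D4:**
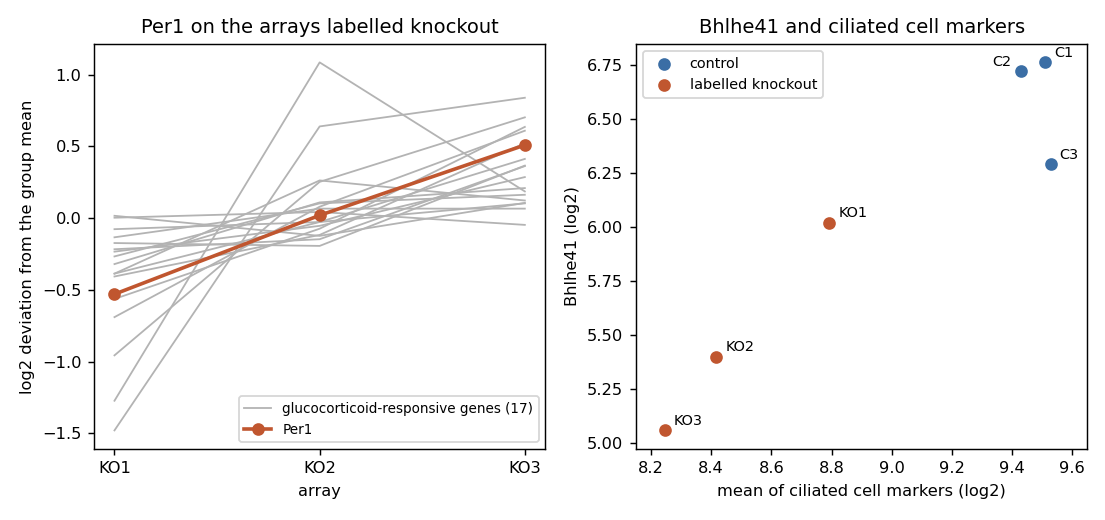
Left, log2 deviation from the group mean of Per1 (orange) and of 17 glucocorticoid-responsive genes (grey) on the arrays labelled knockout; lines join the values of a gene, and Per1 spans 1.04. Right, log2 value of Bhlhe41 against the mean of 11 ciliated cell markers on each array; the arrays labelled knockout lie between 5.06 and 6.02 for Bhlhe41 and between 8.25 and 8.79 for the markers, below the controls on both axes.

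Profiles over the 6 arrays were compared with those of Arntl and Per2, as a description. The genes closest to Arntl among 18707 with ordinary symbols were Pagr1a (Pearson r = 0.993), Ndufb9 (0.990), Klhl13 (0.988), Pih1d1 (0.986) and Scly (0.986). From deviations from the group means the same 5 gave 0.962 to 0.995. Those closest to Per2 were AW554918 (0.991), Osbpl3 (0.989), Olfr711 (0.986), Dynll2 (0.985) and Anp32a (0.982), with 0.905 to 0.979 from deviations. None of these 10 is a core clock gene, and 49 and 48 genes had r above 0.95. With 6 arrays in 2 groups, such values arise for many genes.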

How the data were processed

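The 6 arrays, 3 per group, were grouped by the titles. The submitters' processing notes name RMA and Affymetrix Expression Console 1.1, and the authors deposited log2 values. Those notes name no build for the arrays, and the promoter windows are those of RefSeq GRCm38.p6. Of 35556 probe sets 21789 had 1 symbol in the platform annotation, 1621 several and 12146 none. For a gene with several probe sets, the one with the highest mean was used, which left 19938 genes, of which 19855 matched RefSeq by Entrez identifier and 0 changed symbol. Groups were compared in R 4.3.3 with limma 3.58.1 (lmFit, eBayes, two-sided, Benjamini-Hochberg over all genes, threshold 0.05), with no filter, weight or block. On simulated data with 19938 genes this fit recovered 62 of 100 changes of 0.5 and 88 of 100 of 1, and called 4 unchanged genes.

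The members and lists were chosen with earlier results of these data known. Named genes were the members, called genes of each other list with up to 3 more of smallest p, and the 5 closest profiles to Arntl and to Per2. Other genes in the text were picked with their values in view. Same-numbered arrays had deviations from their group means that correlated at 0.192, 0.103 and 0.111. Each was above 0.1, a chosen cut for treating the numbers as pairs. The main fit nonetheless left the pairing out, and its calls do not take it into account. With the replicate number blocked Arntl passed, at limma adjusted p = 0.0485. This pairing rests on the values alone, since the labels do not say what the numbers mark, and 2 of the 3 pairs join a male and a female pool. The number of arrays limits precision. Alternatives were a replicate block, each array left out, a filter on dim probe sets, repeated quantile normalization, eBayes with trend, the mean of probe sets and a term for sex.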

Additional observations from a re-analysis of the deposited data

How the results depend on the processing

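With 1 array left out, the genes called ran from 459 to 1929 of 19938, the core clock genes called from 2 to 5 of 9, the enzymes and co-regulators from 0 to 2 of 24 (where 0, 2 had an unadjusted p under 0.05 by limma) and the glucocorticoid-responsive genes from 1 to 2 of 17. The cause was not tested. With the replicate number as a block 4 glucocorticoid-responsive genes and 6 core clock genes passed, Arntl being added to the latter, and no other core or second-loop call changed. The Per1 difference ran from -0.52 without knockout 3 to 0.0017 without knockout 1, where its sign changed. Bhlhe41 also lost its call with trend and robust moderation, with a term for sex, and was not tested under the filter, which removed it with Hlf. Over the core genes and the others followed singly, 226 of the repeats kept their side of the threshold, 19 lost it and 4 gained it, all with the same direction, and 1, that of Per1, changed sign.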

Other observations

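Zbtb16, a transcriptional repressor on the glucocorticoid list and chosen after its values were seen, read 8.36, 10.48 and 10.68 on knockout 1, 2 and 3, against 7.79, 9.72 and 9.61 on the controls. Array 1 of each group was low, and only 0.110% and 0.0552% of all genes had a larger range inside those groups. Arntl, Clock, Cry2, Rora and Nfil3 were also lowest on array 1 of each group, as were 11.1% of all genes.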
